A study of Homo sapiens with 4 samples.

Results

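The SLC30A genes encode the ZnT zinc transporters, and peaks of the metal-response transcription factor MTF-1 were described at all 10 members, SLC30A1 to SLC30A10. The members were taken by name from GENCODE v44 on hg38, and for each one every peak overlapping the gene or the 20 kb on either side (its window) was collected, whatever its width. The 10 members are part of 19970 protein-coding genes on chromosomes 1 to 22 and X. Most ZnT proteins move zinc out of the cytosol, either across the plasma membrane or into vesicles and organelles, and so lower cytosolic zinc. MTF-1 is a zinc finger protein that senses zinc and binds metal response elements (MREs), and SLC30A1 is one of its classical targets beside the metallothioneins. Cadmium displaces zinc from metallothioneins, and can thereby raise free zinc in the cell.

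MTF-1 was profiled by CUT&RUN, in which an antibody directs a nuclease to the bound protein and the released DNA is sequenced. All libraries came from MDA-MB-231, a human breast cancer cell line that the labels give as breast. The 2 control libraries came from untreated cells, and the 2 cadmium libraries came from cells selected by serial passage in cadmium sulfate and held at 10 µM, so the cadmium cells were a long-adapted population of 1 line and not acutely exposed cells. The authors merged the replicates of each condition before calling peaks, which left 1 peak list for control cells and 1 for cadmium cells. The lists hold positions only, with no read count, height or expression value. The spread between replicates, the depth behind each peak and the identity of the cells could therefore not be measured, no difference below was tested, and each value describes the pair of lists. The cadmium list covered 69.7% as many bases as the control list over the whole genome, so a smaller covered length in cadmium was the general case. A site is a stretch of peaks joined across both lists. It was called shared where peaks of both lists met by at least 1 base, lost where only the control list had it, and gained where only the cadmium list had it.

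The promoter of SLC30A1, the plasma membrane zinc exporter, is shown first because it lay under a peak in both lists and holds the core of the MRE. Its 250 bases upstream of the start (RefSeq, GRCh38.p14, chr1:211579162-211579411, minus strand, written 5′ to 3′ on the strand of the gene) have the core in capitals. The promoter of SLC30A2, which loads zinc into secretory vesicles and supplies zinc to milk, is set beside it because it holds more core matches and lay under no peak in either list (chr1:26046119-26046368, minus strand). The promoter of SLC30A5, a transporter of the early secretory pathway, is the third because it was covered in both lists and holds no match (chr5:69093764-69094013, plus strand).
SLC30A1: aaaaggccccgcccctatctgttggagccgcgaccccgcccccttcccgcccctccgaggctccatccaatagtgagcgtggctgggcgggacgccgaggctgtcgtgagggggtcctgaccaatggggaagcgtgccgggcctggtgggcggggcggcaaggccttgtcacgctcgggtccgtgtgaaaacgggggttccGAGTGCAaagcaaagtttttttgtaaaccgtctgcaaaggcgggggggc
SLC30A2: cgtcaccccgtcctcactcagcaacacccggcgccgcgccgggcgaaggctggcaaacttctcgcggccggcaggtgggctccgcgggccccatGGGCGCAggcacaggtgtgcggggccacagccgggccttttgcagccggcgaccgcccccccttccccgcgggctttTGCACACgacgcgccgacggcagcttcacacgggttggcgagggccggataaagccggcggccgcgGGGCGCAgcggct
SLC30A5: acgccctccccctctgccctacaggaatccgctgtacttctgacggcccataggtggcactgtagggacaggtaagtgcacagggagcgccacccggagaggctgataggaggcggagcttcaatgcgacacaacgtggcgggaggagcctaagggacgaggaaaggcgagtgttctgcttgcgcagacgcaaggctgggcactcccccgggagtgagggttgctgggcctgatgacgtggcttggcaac
The core searched was TGCRCNC, where R is A or G and N is any base, on both strands. In capitals, GAGTGCA in SLC30A1 and GGGCGCA in SLC30A2 are the core read on the opposite strand. The RefSeq table gave a promoter of 300 bases, 250 before and 50 after the start, for 9 of the 10 members, all but SLC30A8. A core match was in 29.6% of all 35116 promoters of that length, at least 2 matches were in 8.60%, and at least 3 were in 809 promoters. SLC30A1 held 2, SLC30A2 held 3, and SLC30A4 and SLC30A6 held 1 each. SLC30A3 has a pair of promoters in the table, of which the canonical one held 1 match and the one farther upstream held 2. SLC30A5, SLC30A7, SLC30A9 and both promoters of SLC30A10 held none. A match is a stretch of letters and was not taken as a bound site.

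The cores upstream of the canonical start that lay in a covered promoter of 300 bases (SLC30A1, SLC30A3, SLC30A4 and SLC30A6), and the next pair farther upstream of SLC30A1, are printed with 7 bases on either side as the examples nearest a start. Cores under peaks of both lists also lay farther from the start or inside the gene at other members, such as SLC30A5, SLC30A7 and SLC30A9, and are not printed. Each line is written on the strand of the core, with the core in capitals.
SLC30A1, chr1:211579204-211579210: tttgcttTGCACTCggaaccc
SLC30A1, chr1:211579449-211579455: ccgccgcTGCACCCggccacg
SLC30A1, chr1:211579483-211579489: ctcccgcTGCACGCggcccgc
SLC30A3, chr2:27263282-27263288: ccacctcTGCACACagtcccg
SLC30A4, chr15:45522873-45522879: ccagcccTGCGCGCcaggcct
SLC30A6, chr2:32165736-32165742: ctgtcccTGCACTCcgtggcg
The coordinates are those of the core in hg38. The centres of these cores lay 46, 291 and 325 bases upstream of the SLC30A1 start, 238 upstream of the canonical SLC30A3 start, 121 upstream of the SLC30A4 start and 125 upstream of the SLC30A6 start. SLC30A1 and SLC30A6 shared the core TGCACTC. A further core lay 27 bases inside the first exon of SLC30A1 and is not printed.

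MTF-1 peaks lay near most SLC30A genes in both lists, and as deposited the lists had a start-site peak at the same members. A peak within 1 kb of an annotated start was present for 8 of the 10 members in the control list and for the same 8 in the cadmium list. Over all protein-coding genes the shares were 73.4% in control, 71.7% in cadmium and 70.2% in both, so the count for the members was near the background. With peaks of at least 1000 bp only, the counts were 6 in control and 7 in cadmium, and no background was computed under that rule. SLC30A2 and SLC30A8 had no such peak under either rule. SLC30A10 counted only through a short alternative transcript whose start lay 831 bp from a control peak and 631 bp from a cadmium peak. A peak covered the canonical start itself (the start of the transcript that GENCODE marks as canonical) for 7 members. The share of coding genes with a covered canonical start was not computed. A peak somewhere in the window was present for 10 of 10 members in both lists, against 88.9% of coding genes in control and 88.5% in cadmium.

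**Figure D1:**
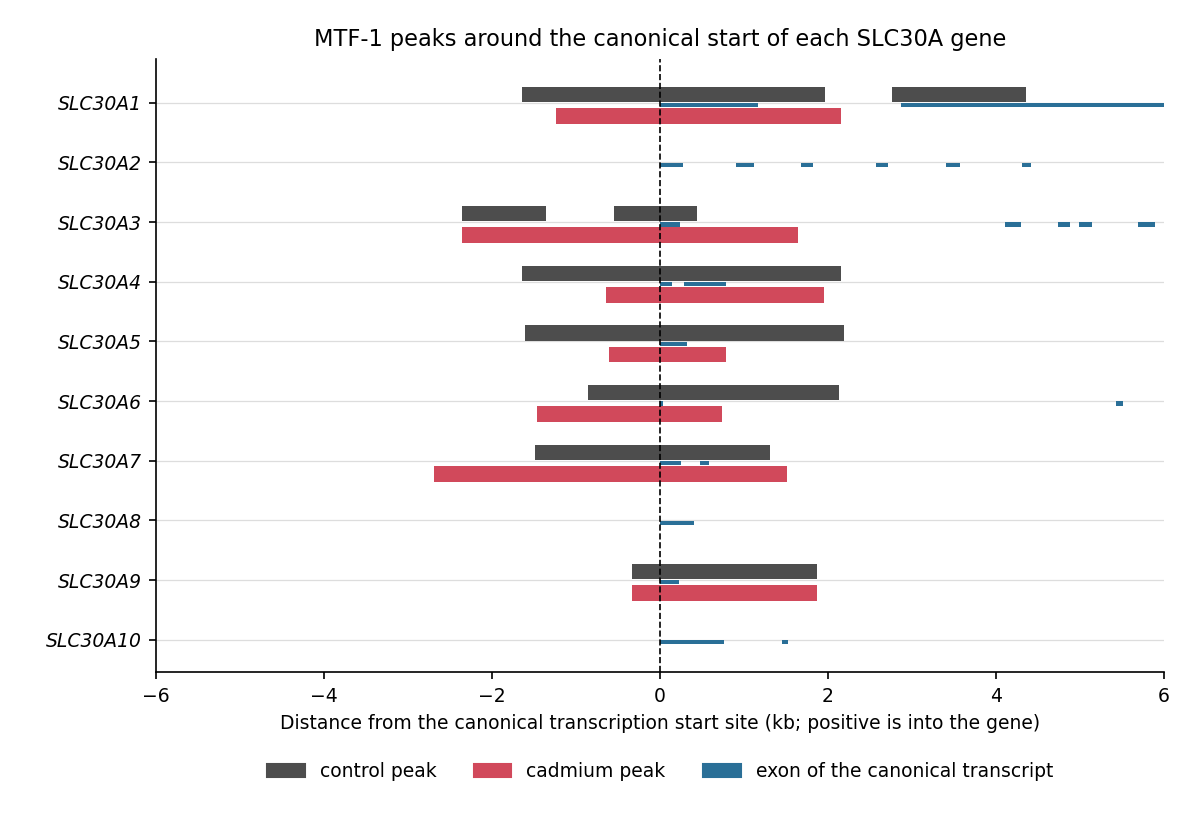
MTF-1 peaks within 6 kb of the canonical start of each SLC30A gene, with control peaks in grey above, cadmium peaks in red below and exons of the canonical transcript in blue, on an axis of distance in kb. A peak of each list lies over the start of 7 genes, none lies near the canonical starts of SLC30A2, SLC30A8 and SLC30A10, and the SLC30A3 peaks are joined and the SLC30A5 peak is narrower in cadmium.

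SLC30A1 (ENSG00000170385.10, chr1:211571568-211579161, minus strand), which exports zinc across the plasma membrane, had 6 control peaks and 4 cadmium peaks. The start was covered by a control peak of 3599 bp at chr1:211577201-211580799 and by a cadmium peak of 3399 bp at chr1:211577001-211580399, which together span the first exon, the start of intron 1 and the promoter. In the 2 kb on either side of the start, 3599 bases were covered in control and 3239 in cadmium. The start site held 7 core matches in all, and the 4 nearest the start were the 3 printed above and the one in the first exon. Upstream lay 3 further shared sites with centres 10939, 13239 and 18939 bp from the start. Of these, the middle one, chr1:211592001-211592799, was identical in the lists with 799 bp, the nearest was narrower in cadmium with 599 bp against 999, and the farthest was wider in cadmium with 1799 bp against 1399. SLC30A1 lost 2 sites, of 1599 bp across the boundary of intron 1 and exon 2 (chr1:211574801-211576399) and of 599 bp in the downstream flank. The SLC30A1 window thus held 8994 bases under control peaks and 6596 under cadmium peaks, or 73.3%, close to the middle of all coding genes.

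SLC30A10 (ENSG00000196660.12, chr1:219685427-219959018, minus strand), a plasma membrane transporter known mainly for exporting manganese, had the longest window and the most peaks of the members, with 14 in control and 5 in cadmium. No peak came within 10 kb of the canonical start, where the nearest edges were 10358 bp away in control and 10158 bp in cadmium. Of its 14 sites 9 were lost and 5 were shared, and none was gained. The lost sites were 599 to 3599 bp wide and held 15591 bases. The shared sites held 8795 bases in control and 4595 in cadmium, so the window held 24386 bases in control and 4595 in cadmium, or 18.8%. A run of 12 of the sites, 8 lost and 4 shared, lay within 115 kb at chr1:219698801-219813799. The run was beyond the 3′ end of the canonical transcript and inside the annotated extent of the gene. Its lost site at chr1:219790601-219792599 overlapped an annotated SLC30A10 exon outside the canonical transcript. A 5S ribosomal RNA pseudogene, RNA5SP76, had the closest annotated start for 16 of the peaks in the window, so their assignment to SLC30A10 rests on the gene's annotated extent.

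At least 9 lost sites were found in the window of 0.566% of the coding genes, and the median coding gene had 0 and the 99th percentile had 7. Windows differ in length, and SLC30A10 had one of 314 kb against a median of 67.5 kb over coding genes and 90.8 kb over the members. Among the 964 coding genes with a window at least as long, the median was 2.00 lost sites and 84, or 8.71%, had at least 9. This comparison by length was chosen after the values were seen.

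**Figure D2:**
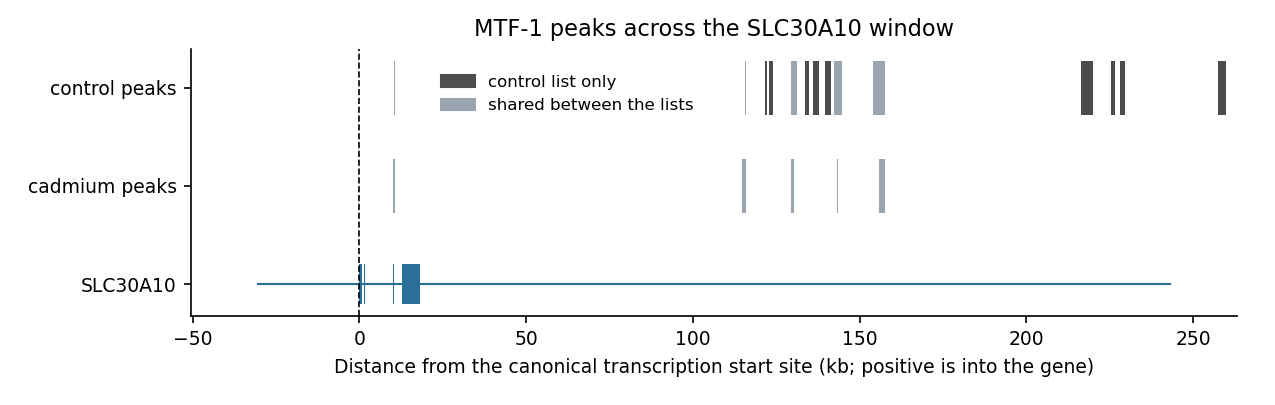
MTF-1 peaks across the SLC30A10 window by distance from the canonical start in kb, with control peaks above, cadmium peaks in the middle, and below them the gene as a line and the exons of the canonical transcript as boxes. Dark bars are peaks of the control list only and light bars are shared, and the run of 8 lost and 4 shared sites lies past the last canonical exon.

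The peak of SLC30A10 nearest its canonical start was a shared one in exon 3 and intron 3, with 399 bp in control and 599 bp in cadmium (chr1:219917801-219918399). It is shown because it held no MRE core and 3 matches to TGASTCA, the consensus of AP-1 (FOS/JUN) factors, where S is C or G. The matches are in capitals, written on the plus strand of hg38.
SLC30A10, chr1:219917950-219917956: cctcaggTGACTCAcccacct
SLC30A10, chr1:219918042-219918048: ttgcagtTGAGTCAgagaatc
SLC30A10, chr1:219918088-219918094: ttggagcTGAGTCAtcttaat
In the whole SLC30A10 window the sites held 14 MRE cores, of which 12 lay under control peaks only, and 16 AP-1 matches, of which 9 lay under control peaks only. They also held 33 matches to the forkhead consensus RTAAAYA, where R is A or G and Y is C or T, of which 28 lay under control peaks only. The window held 24386 bases in control, 4595 in cadmium and 3595 in both, so most covered bases also lay under control peaks only. The match counts were not adjusted for that length.

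The members of the early secretory pathway and Golgi, SLC30A5, SLC30A6 and SLC30A7, all had a start covered in both lists, and the covered length moved in different directions. SLC30A5 (ENSG00000145740.20, chr5:69093991-69131069, plus strand), which pairs with SLC30A6 to load zinc into enzymes of the secretory pathway, had a control peak of 3799 bp at chr5:69092401-69096199 and a cadmium peak of 1399 bp at chr5:69093401-69094799 inside it. Within 2 kb of the canonical start the covered bases were 3614 in control and 1399 in cadmium, a difference of -2215. The difference was lower than this in 1.06% of the 14014 coding genes with a start-site peak in both lists. The site held 6 MRE core matches, of which 4 lay in the part covered in both lists, and 2 of those were the same palindromic stretch read on either strand. The 2 control-only matches, and 1 of the 4 in both lists, were followed by cagcctg, a stretch found in Alu repeats. A lost site of 399 bp lay in the upstream flank with its centre 10414 bp from the start.

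SLC30A6 (ENSG00000152683.14, chr2:32165841-32224379, plus strand) had a control peak of 2999 bp and a cadmium peak of 2199 bp over its start. The peaks were offset, with chr2:32165001-32167999 in control and chr2:32164401-32166599 in cadmium, so the cadmium peak reached farther upstream and less far into the gene. Both peaks overlapped the divergent transcript SLC30A6-DT. The cover within 2 kb of the start was 2864 bases in control and 2199 in cadmium. A lost site of 399 bp lay in intron 5. SLC30A7 (ENSG00000162695.12, chr1:100896076-100981757, plus strand), which brings zinc into the Golgi, was wider in cadmium, with 2799 bp at chr1:100894601-100897399 in control and 4199 bp at chr1:100893401-100897599 in cadmium. Within 2 kb of its start the cover was 2799 bases in control and 3510 in cadmium, a difference above that of 94.0% of the coding genes compared. The same peaks covered the start of the divergent neighbour EXTL2, which was 321 bp from the centre of the site and closer than that of SLC30A7. SLC30A7 also had lost sites of 599 bp in intron 8 and of 399 bp in EXTL2. Over their windows the cadmium list held 33.3% of the control bases at SLC30A5, 64.7% at SLC30A6 and 111% at SLC30A7.

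Among the members of vesicles and endosomes, SLC30A3 stood at one end of the start-site range. SLC30A3 (ENSG00000115194.11, chr2:27253684-27275817, minus strand) fills synaptic vesicles with zinc. Its canonical start lay under 1 of a pair of control peaks of 999 bp each, at chr2:27262601-27263599 and chr2:27264401-27265399, and under a single cadmium peak of 3999 bp at chr2:27261401-27265399 that spans both. Within 2 kb of the start 1646 bases were covered in control and 3647 in cadmium, a difference of 2001 that was above that of 99.7% of the coding genes compared. Of the 6 MRE cores in this site, 4 lay under peaks of both lists and 2 in the stretch covered in cadmium only. The upstream SLC30A3 promoter with 2 core matches lay under no peak in either list. SLC30A3 gained 2 sites, of 399 bp inside the gene and of 1199 bp at the neighbour DNAJC5G, and lost 1 of 799 bp in the neighbour TRIM54. Its window held 3196 bases in control and 6396 in cadmium, or 200%.

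SLC30A2 (ENSG00000158014.15, chr1:26037252-26046118, minus strand) had no peak near its start, with the nearest edges 9119 bp away in control and 7519 bp in cadmium. Its shared site was wider in cadmium, 2599 bp at chr1:26034401-26036999 against 3999 bp at chr1:26034601-26038599, where it reached the last exon of SLC30A2. The peaks of both lists overlapped the neighbour EXTL1. A gained site of 2999 bp lay at chr1:26018601-26021599, with its centre 216 bp from the start of EXTL1. The difference between 2599 bases in control and 6998 in cadmium, or 269%, thus lay at the far end of the gene and at the neighbour. SLC30A4 (ENSG00000104154.7, chr15:45479606-45522755, minus strand), an endosomal transporter active in the mammary gland, had 1 shared site and no other, with 3799 bp in control and 2599 bp in cadmium. Its cover within 2 kb of the start was 3645 bases in control and 2599 in cadmium. SLC30A8 (ENSG00000164756.13, chr8:116950273-117176714, plus strand), the transporter of insulin granules, had no peak near its canonical start, where the nearest edges were 130206 bp away in control and 196196 bp in cadmium. The most upstream annotated start of SLC30A8 lay 11274 bp from a control peak and 11474 bp from a cadmium peak. Its shared site, of 1599 bp in control and 1399 bp in cadmium, had its centre 7 bp from the start of the neighbour AARD, and its lost site of 599 bp lay inside the gene.

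SLC30A9 (ENSG00000014824.14, chr4:41990502-42090461, plus strand), which acts in zinc export from mitochondria, had a start peak that was identical in the lists, with 2199 bp at chr4:41990201-41992399. It lost a site of 399 bp in intron 8 and gained one of 599 bp in the downstream flank, and its window held 2598 bases in control and 2798 in cadmium.

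**Figure D3:**
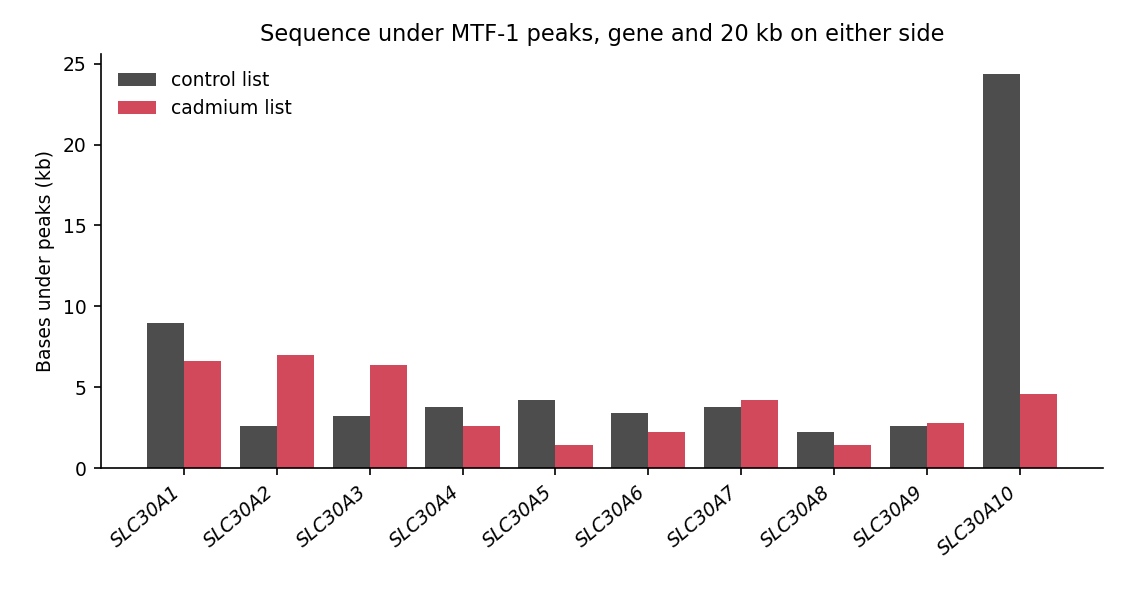
Bases under MTF-1 peaks in the window of each SLC30A gene, in kb, with the control list in grey and the cadmium list in red. SLC30A10 has the highest control bar at 24386 bases, against 4595 in cadmium, and SLC30A2, SLC30A3, SLC30A7 and SLC30A9 have the higher bar in cadmium.

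Summed over the windows, the control list covered 59163 bases and the cadmium list 39178, of which 26381 were in both. The cadmium sum was 66.2% of the control sum. Without SLC30A10 the sums were 34777 and 34583 bases, or 99.4%, so nearly the whole net difference lay at that gene. The other 9 members moved in both directions, from 33.3% at SLC30A5 to 269% at SLC30A2, and largely cancelled in the sum. Leaving out each other member in turn gave 56.9% (without SLC30A2) to 68.7% (without SLC30A5). More bases were covered in cadmium than in control at 4 of the 10 members, SLC30A2, SLC30A3, SLC30A7 and SLC30A9, against 21.6% of coding genes. Among the 16892 coding genes with at least 1000 control bases, the median cadmium percent was 75.0% and the quartiles were 56.0% and 97.4%. SLC30A2 was above 99.5% of those genes and SLC30A3 above 98.6%, while SLC30A10 was above 2.97% and SLC30A5 above 7.60%. SLC30A1, SLC30A4, SLC30A6 and SLC30A8 lay between the quartiles, at 63.6% to 73.3%.

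**Figure D4:**
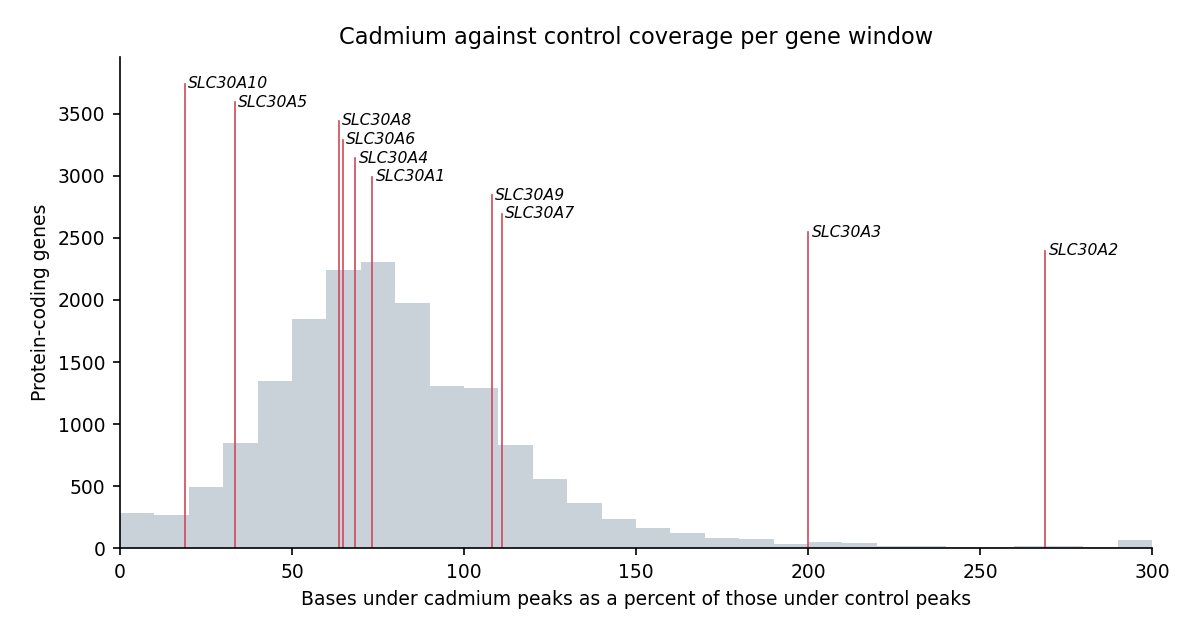
Number of protein-coding genes by the bases under cadmium peaks as a percent of those under control peaks in their windows, in bins of 10 points, for the 16892 genes with at least 1000 control bases, with the last bin also holding all genes above 300%. Red lines mark the SLC30A genes and their height has no meaning, with SLC30A10 at 18.8% lowest and SLC30A2 at 269% highest.

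Cover around the starts was also summed. Within 2 kb of the 7 covered canonical starts the sum was 20366 bases in control and 18792 in cadmium, or 92.3%. Over the 14014 coding genes with a start-site peak in both lists it was 88.5%. The sets are unlike, since those genes qualified by a peak within 1 kb of any annotated start. Like SLC30A10, some of them can lack cover at the canonical start. The median difference over those genes was -200 bases with quartiles of -607 and 0, 54.6% had more bases in control, 24.0% had more in cadmium and 21.4% had equal cover. SLC30A1, SLC30A4, SLC30A5 and SLC30A6 had more in control, SLC30A3 and SLC30A7 had more in cadmium, and SLC30A9 was equal.

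The windows held 40 sites, of which 18 were shared, 18 lost and 4 gained, that is 45.0%, 45.0% and 10.0%. Over all 77070 sites the shares were 63.1%, 25.1% and 11.8%. Without SLC30A10 there were 26 sites, of which 13 were shared, 9 lost (34.6%) and 4 gained (15.4%). At least 1 lost site was found at 8 of the 10 members, all but SLC30A2 and SLC30A4, against 46.1% of coding genes. That count was 2 with peaks of at least 1000 bp only and 3 where the member's own start had to be the closest, and no background was computed under those rules. At least 1 gained site was found at 3 of the 10, SLC30A2, SLC30A3 and SLC30A9, against 31.2%. The members' windows were longer than the median of coding genes, and a longer window holds more sites, so the count of lost sites and its background differ in length as well as in the genes.

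The classes differed in place and width. Of the 18 shared sites 7 lay over a start of the member, 6 elsewhere in the gene and 5 in the upstream flank. None of the 18 lost sites and none of the 4 gained sites covered a start of the member. No share over all sites was computed for place, and starts of neighbouring genes were not counted. The gained site of 2999 bp in the SLC30A2 window had its centre 216 bp from the EXTL1 start. Shared sites in the upstream flank had centres 7 bp from the AARD start and 229 bp from the TRIM54 start. The paper reports that peaks unique to either condition lay at promoters less often than conserved peaks over the whole genome. It used the promoters of any gene, so its measure is unlike the count here. The lost sites lay inside the gene in 13 cases, in the upstream flank in 3 and in the downstream flank in 2. Of the 13, 8 belonged to the SLC30A10 run beyond its canonical transcript. The median width was 2299 bp for shared, 899 bp for lost and 899 bp for gained sites, against 1799, 999 and 599 bp over the whole lists. Outside SLC30A10 the lost sites were 399 to 1599 bp wide, where the caller's bin is 200 bp. The member's own start was the closest annotated start for 13 of the 40 sites, 7 shared, 4 lost and 2 gained.

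**Figure D5:**
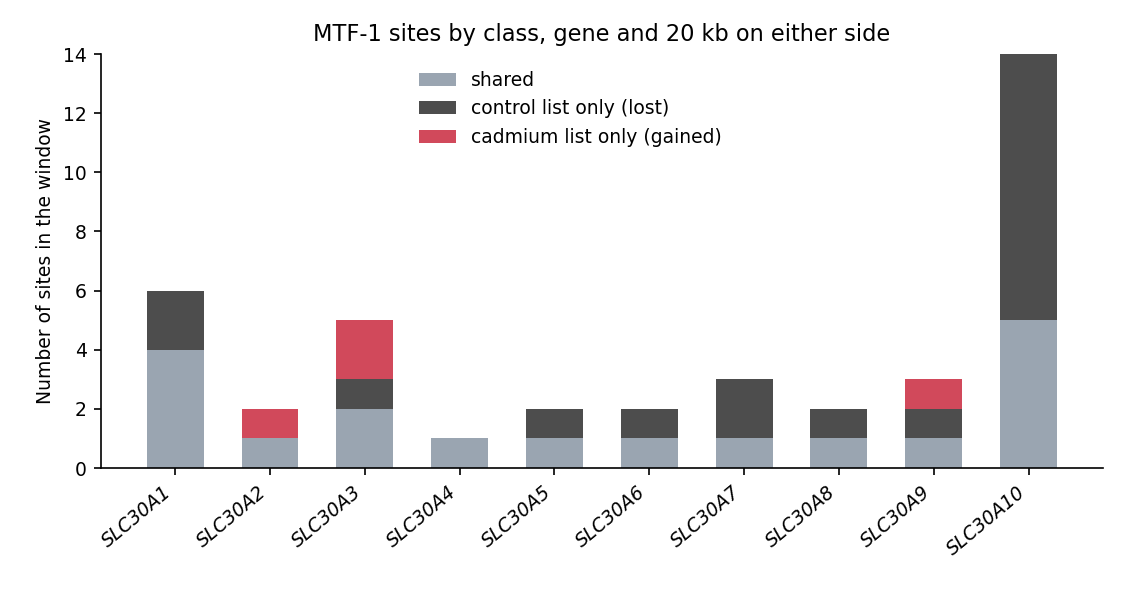
Number of MTF-1 sites in the window of each SLC30A gene, stacked by class with shared sites in light grey, lost sites in dark grey and gained sites in red. SLC30A10 has 9 of the 18 lost sites, and the 4 gained sites are at SLC30A2, SLC30A3 and SLC30A9.

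The MRE core was searched in 500 bp around the centre of each site. It was found in 14 of the 40 members' sites, or 35.0%, against 33.9% of all sites. By class it was in 9 of 18 shared sites (against 36.5% of all shared sites), in 4 of 18 lost sites (22.2% against 28.8%) and in 1 of 4 gained sites (against 30.6%). The AP-1 consensus was in 27.5% of the members' sites against 24.8% of all sites, and the forkhead consensus in 35.0% against 30.2%. Each share rests on few sites. Over the whole length of the sites there were 64 MRE core matches, of which 34 lay under peaks of both lists, 18 under control peaks only and 12 under cadmium peaks only. SLC30A1 had 15 of them with 13 under both lists, the most of any member. Of its 15, 7 lay at the start site and the rest in the shared sites upstream. None of these counts was adjusted for the bases covered. Summed over the windows, those were 59163 in control, 39178 in cadmium and 26381 in both, and at SLC30A1 8994 in control and 6596 in cadmium. Of the 64 matches 11 were followed by the Alu stretch cagcctg, and overlapping matches on opposite strands were counted separately.

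The other genes of zinc handling were counted in the same way. The 14 SLC39A genes encode the ZIP importers that bring zinc into the cytosol, the 11 metallothionein genes encode zinc-binding proteins, and MTF1 and TMEM163, a vesicular zinc transporter, completed the list of 27. A start-site peak was in both lists for 11 of the 14 importers, 6 of the 11 metallothioneins, and MTF1 and TMEM163. No gene of the 27 had one in a single list. Over coding genes the shares were 73.4% in control, 71.7% in cadmium and 70.2% in both, so a peak in a single list was uncommon there too. At least 1 lost site was found at 6 of 14 importers and 6 of 11 metallothioneins, and at least 1 gained site at 3 of 14 and 5 of 11. Over coding genes the shares were 46.1% for a lost site and 31.2% for a gained site. More bases were covered in cadmium at 0 of 14 importers and at 9 of 11 metallothioneins, whose windows overlap each other and so count the same peaks repeatedly. The share over coding genes was 21.6%. Beside the 4 of 10 exporters, these are counts of genes in the pair of lists, and the differences between the families were not tested. TMEM163, named here after its values were seen, was the 1 gene of the 27 with at least 9 lost sites, with 16 lost sites and 38172 control against 12386 cadmium bases. Longer windows hold more sites, and TMEM163 was not compared with genes of like window length.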

How the data were processed

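MTF-1 CUT&RUN was made in 2 control and 2 cadmium libraries. After adaptor trimming and Bowtie2 alignment to hg38, the authors merged replicates with SAMtools 1.8 and called broad peaks with Epic2, an implementation of SICER (version 0.0.50 per the labels), without a named control library. The deposited lists give positions in base pairs, and their last column was constant and was not used. With no counts, depth is unknown and no peak near the caller's threshold can be told from a firm one.

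Peaks were written 1-based. The deposited ends fall 1 bp short of a multiple of the 200 bp bin, so the narrowest peak is 199 bp wide. They were joined with GENCODE 44 on hg38, motifs were read from hg38 and promoters from RefSeq (GRCh38.p14), in Python 3.11.15 with numpy 2.4.6, pandas 2.3.3 and matplotlib 3.10.9. The scripts were tested on simulated data. All 10 members are named, and of other genes those closer to a member's peak. Members and lists were chosen with earlier results of these data known. No test was run, since each condition has 1 list. Other flanks, peak widths, overlap rules and start definitions were tried. The start-site cover, its 1 kb and 5 kb versions and leaving out SLC30A10 were added after seeing the data.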

Additional observations from a re-analysis of the deposited data

How the results depend on the processing

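No paired analysis was possible because the replicates were merged before peak calling and no test was run. The number of members with a peak or a start-site peak stayed within 1.5 times the value in the text under each alternative run. The window set the site counts. With no flank there was 1 gained site at 1 member and 9 sites held an MRE core in the central 500 bp, with a 5 kb flank 2 gained sites at 1 member and 9 with a core, and with a 50 kb flank 34 shared sites, 8 gained sites and 26 with a core. Keeping peaks of at least 1000 bp gave 10 shared and 10 lost sites, with a lost site at 2 members and a gained site at 3, so lost sites were no longer at more members than gained sites, and start-site peaks at 6 members in control and 7 in cadmium, no longer an equal number. Asking for at least 50% of a peak to be covered gave 7 gained sites. Keeping sites closest to the member's own start gave 7 shared, 4 lost and 2 gained sites, with a lost site at 3 members. Searching the whole peak found a core in 25 sites, or 62.5%, against 61.7% of all sites. Without SLC30A10 there were 9 lost sites and the cadmium cover was 99.4% of control, against 49.5% to 70.7% under the other alternatives. The start-site cover was 99.3% within 1 kb and 87.7% within 5 kb. The absence of replicate lists and read counts limits all of these values, and a peak absent from a list may be one just under the threshold.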
